A study of Rattus norvegicus with 12 samples.

Results

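The genes described here are the cell division and DNA replication genes, a list of 58 gene symbols that was followed over the 4 groups of a rat bone microarray series. A gene was measured where at least 1 probe set (a group of short probes against 1 transcript) carried its symbol and no other, which gave 54 of the 58 genes on 73 probe sets, of 14217 genes on the array. Of the 4 others, no probe set carried Cdc6, Tpx2 or Nek2, and Rrm2 had only 2 probe sets that also name another gene and were not used. By role 18 measured genes belong to DNA replication, 29 to mitosis and 7 are regulators of the cycle, so that each class can be set against the others.

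RNA came from the tibia of female rats after the marrow was aspirated, and the SPI group ate a diet made with soy protein isolate, the E2 group the casein diet with 17 beta-estradiol from an implanted pump, the SPI+E2 group the soy diet with the same hormone and the CAS group the casein diet alone. All 4 groups were pups of dams fed casein, treated until postnatal day 34 from day 21 by the labels (the methods begin a day earlier). Each group had 3 of the 12 Affymetrix arrays, and the RNA on an array was a pool from more than 1 rat, so that all p-values refer to differences among pools.

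A cell that divides first licenses its origins by loading the Mcm helicase, then copies its DNA with polymerases, clamps and a supply of deoxynucleotides, and then builds a spindle, separates its chromosomes and cuts itself apart. Genes of the first steps are switched on by E2F factors as cells pass from G1 into S phase, and genes of the last steps by complexes that read CHR elements in G2 and M phase. In long bone the dividing cells include growth plate chondrocytes, osteoblast precursors and the blood precursors of the marrow. These transcripts are scarce in resting cells, which makes their sum a common reading of how many cells are in cycle.

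All values are log2 values that the authors centred for each probe set on its median over the 12 arrays. They show how arrays differ for a gene and hold no level, so genes cannot be ranked by abundance and whether a marker of bone is absent cannot be read. A call is an adjusted p under 0.05 from limma over all 14217 genes. The spread within a group was small, with a median SD of these genes of 0.0734 in SPI, 0.0641 in E2, 0.0603 in SPI+E2 and 0.047 in CAS pools. The first SPI array stood apart most, with an SD over all probe sets of 0.211 against 0.128 to 0.164 on the other 11. Of 4 measured genes on chromosome Y, Eif2s3y, which encodes a translation factor, had 0.26, 0.33 and 0.86 with SPI, 0.01, 0.02 and 0.19 with E2, -0.37, -0.28 and -0.01 with SPI+E2 and -1.82, -1.89 and -2.20 with CAS. Sry, Tspy1 and Uty did not set the CAS arrays apart in this way. Uty was called lower with SPI than with CAS (limma, -0.18, adjusted p 0.0341), the other direction than Eif2s3y. Xist, the RNA of the inactive X chromosome, lay between -0.07 and 0.03 on the 9 treated arrays. On the 3 CAS arrays it lay between 0.18 and 0.28. The labels call all rats female, and this difference between CAS and all treated groups cannot be told apart from treatment. Eif2s3y was also lower in SPI+E2 than in SPI (limma, -0.70, adjusted p 0.00844). It did not pass for SPI against E2 or SPI+E2 against E2 (adjusted p 0.0761 and 0.229). The change with E2 differed between the 2 diets for Eif2s3y (limma interaction -2.75, adjusted p 3.87e-06) and Xist (0.33, adjusted p 0.00163). The part of these differences in the results below, the interaction terms included, was not tested.

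The cell division and replication genes were lower in all 3 treated groups than in CAS, most with E2. With E2, 51 of 54 were called lower and 0 higher, where 7.23% of all genes were called lower and 6.98% higher. With SPI+E2, 42 were lower and 0 higher (7.06% and 5.8% of all genes), and with SPI, 27 were lower and 0 higher (14.6% and 10.7% of all genes). The median log2 change was -0.20 with SPI, -0.48 with E2 and -0.30 under SPI+E2, while the median over all genes was -0.01, -0.01 and 0.00. The 3 comparisons share the CAS arrays and so are not independent of each other. In bulk RNA, fewer dividing cells and less of these transcripts in each cell cannot be told apart.

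No E2 array reached the lowest CAS array for any of the 54 genes (18.6% of all genes had E2 arrays wholly below CAS and 16% wholly above). The SPI+E2 arrays lay wholly below CAS for 49 genes (17.4% of all genes) and the SPI arrays for 39 (23%), with Lig1, which encodes the ligase that seals Okazaki fragments, wholly above for SPI (17% of all genes). If the values are log2, as the methods state, the changes with E2 ran between 1.10-fold lower for Cenpa, the histone variant of centromeres, and 1.67-fold lower for Ccne1, cyclin E of the entry into S phase. The mean over the 54 genes was 0.00, 0.06 and 0.08 on the SPI arrays, -0.22, -0.25 and -0.21 on the E2 arrays, -0.06, -0.08 and -0.02 on the SPI+E2 arrays and 0.24, 0.22 and 0.25 on the CAS arrays. The 4 groups thus formed 4 separate bands, with CAS on top, then SPI, SPI+E2 and E2.

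**Figure D1:**
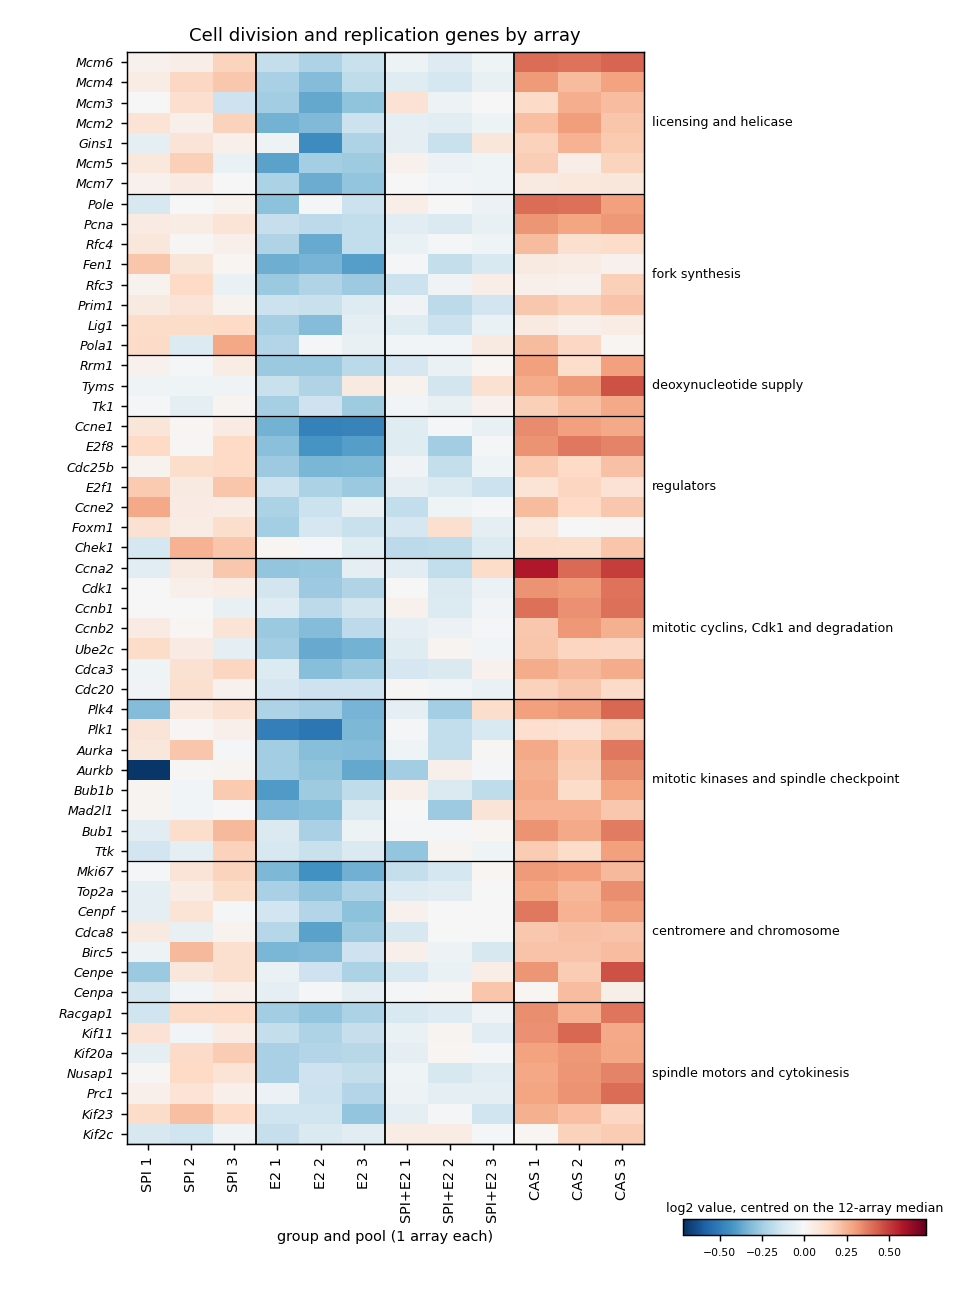
Value of each of the 54 measured genes (rows, by role and then by the change with E2) on each of the 12 arrays (columns), as log2 value centred on the median of the 12 arrays, with red above and blue below that median. The 3 CAS arrays are red and the 3 E2 arrays blue for nearly all genes, the SPI and SPI+E2 arrays are paler, and the first SPI array is darkest at Aurkb, with a value of -0.70.

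Promoters were read for 45 of the 54 genes, since the classes are known to be switched on through different elements and the changes could be set beside them. The sequences are from RefSeq (assembly GRCr8), cover 250 bases before to 50 bases after the start of each gene, and were searched on both strands for an E2F site (the letters TTCCCGC, or in other forms TTCGCGC, or again TTGCCGC, or lastly TTGGCGC), a CHR element (the letters TTTGAA, or in another form TTCGAA) and a CCAAT box (named for its letters). Matches to different motifs overlapped in 2 of 46 promoters for the E2F site with the CCAAT box and in 2 for the CHR element with the CCAAT box. An E2F site stood in 15 of 17 replication promoters (88.2%) and 5 of 25 mitosis promoters (20%), against 9.52% of all 33469 promoters of this length. A CHR element stood in 4 replication promoters (23.5%) and 17 mitosis promoters (68%), against 19.7% of all promoters. The CCAAT box was common in both, in 64.7% of replication and 76% of mitosis promoters, against 37.5% of all. Of the mitosis promoters 12 held a CHR element with no E2F site and 0 the reverse, and of the replication promoters 11 held an E2F site with no CHR element and 0 the reverse. Neither element was found in 2 replication promoters, those of Pcna and Tk1. The same held for 8 mitosis promoters, those of Ccnb1 and Aurka among them. The search found letters, not bound sites, and 3 regulator promoters were too few to describe.

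A total of 5 promoters are shown with every match in capitals: Mcm6 and Mcm3 of the replicative helicase, whose genes fell with E2, Top2a and Plk1 of mitosis, and Cdk1, the kinase that drives entry into mitosis, which holds all 3 motifs. They are examples that hold an E2F site or a CHR element, and promoters with neither are not shown. Mcm6 is at chr13:42404303-42404602 on the minus strand and has 3 separate E2F places and 2 CCAAT boxes, where a match on the other strand reads as its reverse complement (ATTGG for CCAAT).
Mcm6: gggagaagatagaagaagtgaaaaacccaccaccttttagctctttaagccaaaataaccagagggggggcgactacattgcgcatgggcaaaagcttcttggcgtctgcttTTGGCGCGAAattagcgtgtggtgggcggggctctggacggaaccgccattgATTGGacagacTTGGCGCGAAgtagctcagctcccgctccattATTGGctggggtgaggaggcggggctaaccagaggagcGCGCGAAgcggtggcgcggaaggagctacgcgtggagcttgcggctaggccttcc
Mcm3: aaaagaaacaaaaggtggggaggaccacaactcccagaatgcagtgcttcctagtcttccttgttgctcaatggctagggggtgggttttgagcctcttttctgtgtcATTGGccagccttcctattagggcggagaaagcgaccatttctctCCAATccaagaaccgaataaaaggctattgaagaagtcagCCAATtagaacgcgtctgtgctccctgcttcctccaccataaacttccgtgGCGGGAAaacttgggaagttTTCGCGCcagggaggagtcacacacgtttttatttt
Top2a: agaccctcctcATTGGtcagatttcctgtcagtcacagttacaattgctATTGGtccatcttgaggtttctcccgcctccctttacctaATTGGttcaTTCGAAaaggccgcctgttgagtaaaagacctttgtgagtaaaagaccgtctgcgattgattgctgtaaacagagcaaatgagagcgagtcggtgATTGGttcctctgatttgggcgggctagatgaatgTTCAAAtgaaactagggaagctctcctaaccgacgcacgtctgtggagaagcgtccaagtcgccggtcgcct
Plk1: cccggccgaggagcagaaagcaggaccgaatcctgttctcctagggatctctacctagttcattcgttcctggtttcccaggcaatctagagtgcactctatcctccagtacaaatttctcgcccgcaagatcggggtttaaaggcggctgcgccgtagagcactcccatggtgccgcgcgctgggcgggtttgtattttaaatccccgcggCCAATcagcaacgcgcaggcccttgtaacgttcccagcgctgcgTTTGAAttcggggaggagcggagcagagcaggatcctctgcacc
Cdk1: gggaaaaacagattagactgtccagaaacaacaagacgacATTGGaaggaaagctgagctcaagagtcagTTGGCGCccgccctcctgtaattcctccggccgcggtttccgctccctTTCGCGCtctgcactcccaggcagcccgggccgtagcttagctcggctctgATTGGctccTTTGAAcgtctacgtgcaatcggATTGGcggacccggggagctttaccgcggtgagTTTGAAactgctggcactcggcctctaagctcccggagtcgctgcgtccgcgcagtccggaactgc
Mcm3, at chr9:30733697-30733996 on the minus strand, has 2 E2F places and 3 CCAAT boxes. Top2a, at chr10:84473044-84473343 on the minus strand, has no E2F match, 2 CHR places and 4 CCAAT boxes. Plk1, at chr1:186147408-186147707 on the plus strand, has 1 CHR place and 1 CCAAT box, and Cdk1, at chr20:19265043-19265342 on the plus strand, has 2 E2F places, 2 CHR places and 3 CCAAT boxes.

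Among the replication genes, the licensing and helicase group fell as a block with E2: all 7 measured members were called lower (median -0.51). With SPI+E2 3 of 7 were lower (median -0.25) and with SPI 2 of 7 (median -0.14). All counts by role can be read against the 14.6%, 7.23% and 7.06% of all genes called lower with SPI, E2 and SPI+E2. With SPI, 2 lower genes in a role of 7 or 8 are little above that share. Mcm2 to Mcm7 form the ring that unwinds DNA at the fork, and Gins1 is part of the complex that activates it.

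Mcm6 had 0.03, 0.05 and 0.16 on the SPI arrays, -0.17, -0.22 and -0.16 on the E2 arrays, -0.04, -0.09 and -0.03 on the SPI+E2 arrays and 0.40, 0.39 and 0.42 on the CAS arrays. The CAS arrays were the highest, the E2 arrays the lowest, and no group overlapped CAS. Its change was -0.32 with SPI, -0.59 with E2 and -0.46 under SPI+E2 (limma, SE 0.043 for each, with adjusted p 0.00022, 2.79e-06 and 5.97e-05). Mcm3 had 0.01, 0.12 and -0.15 with SPI, -0.25, -0.37 and -0.29 with E2, 0.10, -0.04 and -0.01 with SPI+E2 and 0.14, 0.26 and 0.22 with CAS, so that SPI+E2 lay wholly below CAS by a narrow margin while its change of -0.19 did not pass (adjusted p 0.102). Its change with E2 was -0.51 (SE 0.068, adjusted p 0.000283) and with SPI -0.21 (adjusted p 0.0388). The call of Mcm3 with SPI was lost in 10 of the other settings run.

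For Mcm4 the values were 0.06, 0.15 and 0.19 in the SPI pools, -0.23, -0.31 and -0.18 in the E2 pools, -0.09, -0.13 and -0.06 in the SPI+E2 pools and 0.31, 0.23 and 0.29 in the CAS pools. All 3 treated groups lay below CAS, and the change passed with E2 (-0.52, SE 0.049, adjusted p 2.14e-05) and SPI+E2 (-0.36, adjusted p 0.000653) and missed with SPI (-0.14, adjusted p 0.0541). Mcm2 measured 0.10, 0.03 and 0.17 with SPI, -0.34, -0.32 and -0.15 with E2, -0.06, -0.08 and -0.03 with SPI+E2 and 0.22, 0.30 and 0.20 with CAS. The same order held, with -0.51 for E2 (SE 0.056, adjusted p 6.38e-05), -0.30 for SPI+E2 (adjusted p 0.005) and -0.14 for SPI (adjusted p 0.0934).

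Mcm5 and Mcm7 passed against CAS with E2 alone. Mcm5 stood at 0.08, 0.17 and -0.05 on the SPI arrays, -0.39, -0.25 and -0.25 on the E2 arrays, 0.03, -0.04 and -0.03 on the SPI+E2 arrays and 0.18, 0.05 and 0.16 on the CAS arrays. The SPI arrays overlapped CAS, SPI+E2 lay just below CAS, and E2 lay far below. Its changes were -0.06 with SPI, -0.42 with E2 and -0.14 under SPI+E2 (SE 0.063, adjusted p 0.512, 0.000575 and 0.167). Mcm7 stood at 0.03, 0.06 and 0.00 with SPI, -0.23, -0.36 and -0.28 with E2, 0.00, -0.02 and -0.03 with SPI+E2 and 0.06, 0.08 and 0.08 with CAS, where E2 lay well below the other 3 groups and these lay close together. Its changes were -0.05, -0.36 and -0.09 for SPI, E2 and SPI+E2 (SE 0.041, adjusted p 0.459, 7.38e-05 and 0.186). Gins1 changed by -0.44 with E2 (SE 0.094, adjusted p 0.00766), with its E2 arrays spread between -0.45 and -0.04.

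At the fork itself 7 of 8 genes were lower with E2 (median -0.37), 4 with SPI+E2 (median -0.17) and 2 with SPI (median -0.08). Pole, the polymerase of the leading strand, had -0.11, 0.00 and 0.02 on the SPI arrays, -0.29, -0.01 and -0.15 on the E2 arrays, 0.05, 0.00 and -0.04 on the SPI+E2 arrays and 0.40, 0.40 and 0.29 on the CAS arrays. The CAS arrays stood above all others, and the E2 arrays spread widely and overlapped SPI. The changes were -0.39 with SPI, -0.52 with E2 and -0.36 under SPI+E2 (SE 0.068, adjusted p 0.00143, 0.000254 and 0.00512). Pcna, the sliding clamp that holds polymerases on DNA, had 0.06, 0.05 and 0.10 in the SPI pools, -0.17, -0.19 and -0.18 in the E2 pools, -0.08, -0.10 and -0.05 in the SPI+E2 pools and 0.32, 0.29 and 0.31 in the CAS pools. It had the smallest standard error of the 54 genes, and its 4 groups lay apart: -0.23 with SPI, -0.48 with E2 and -0.38 under SPI+E2 (SE 0.035, adjusted p 5e-04, 2.53e-06 and 4.68e-05).

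The rest of the fork group fell with E2 by less. Rfc4 and Rfc3, subunits of the loader that places the clamp, changed by -0.41 and -0.33 with E2, Fen1, the nuclease that trims Okazaki flaps, by -0.41, Prim1, the primase, by -0.32, and Lig1 by -0.26, all called. Fen1 and Lig1 had positive changes with SPI, 0.05 and 0.08, which did not pass (adjusted p 0.532 and 0.305). Pola1, the catalytic subunit of the polymerase that starts new strands, had 0.14, -0.10 and 0.28 with SPI, -0.21, -0.02 and -0.06 with E2, -0.02, -0.02 and 0.06 with SPI+E2 and 0.23, 0.15 and 0.02 with CAS, and its groups overlapped except for E2 under CAS. It passed in no comparison with CAS, at -0.02, -0.22 and -0.12 for SPI, E2 and SPI+E2 (SE 0.089, adjusted p 0.871, 0.131 and 0.407).

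The 3 measured genes of deoxynucleotide supply were lower in each treated group. Rrm1, the large subunit of ribonucleotide reductase, had 0.03, -0.01 and 0.05 on the SPI arrays, -0.27, -0.27 and -0.19 on the E2 arrays, -0.12, -0.05 and 0.01 on the SPI+E2 arrays and 0.30, 0.12 and 0.29 on the CAS arrays. The second CAS pool was lower than the others of its group but lay above every treated array, and the changes were -0.21, -0.48 and -0.29 for SPI, E2 and SPI+E2 (SE 0.055, adjusted p 0.0143, 8.46e-05 and 0.00532). Tyms, thymidylate synthase, had -0.03, -0.03 and -0.02 with SPI, -0.16, -0.22 and 0.07 with E2, 0.02, -0.13 and 0.11 with SPI+E2 and 0.27, 0.31 and 0.46 with CAS, where the third E2 array lay above all SPI arrays. Its changes were -0.37, -0.45 and -0.34 (SE 0.081, adjusted p 0.00569, 0.00257 and 0.0174). Tk1, thymidine kinase, which salvages thymidine, changed by -0.24, -0.43 and -0.23.

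Regulators of the cycle held the 2 largest changes with E2, Ccne1 and E2f8. Of 7, 6 were lower with E2 (median -0.34), 6 with SPI+E2 (median -0.26) and 2 with SPI (median -0.06). Ccne1, cyclin E1, had 0.09, 0.01 and 0.06 on the SPI arrays, -0.34, -0.49 and -0.48 on the E2 arrays, -0.09, -0.01 and -0.05 on the SPI+E2 arrays and 0.34, 0.29 and 0.27 on the CAS arrays. The E2 arrays lay far below, SPI and SPI+E2 between, and CAS on top, with changes of -0.25, -0.74 and -0.35 for SPI, E2 and SPI+E2 (SE 0.047, adjusted p 0.00253, 1.11e-06 and 0.000592). E2f8, a repressor that E2F factors switch on and that then turns S phase genes off, had 0.14, 0.01 and 0.14 in the SPI pools, -0.30, -0.43 and -0.40 in the E2 pools, -0.09, -0.25 and -0.01 in the SPI+E2 pools and 0.32, 0.38 and 0.36 in the CAS pools. No treated array reached CAS, and the changes were -0.25, -0.73 and -0.47 (SE 0.064, adjusted p 0.0131, 1.18e-05 and 0.000721).

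Cdc25b, the phosphatase that activates Cdk1, changed by -0.49 with E2 and -0.26 with SPI+E2, and E2f1, the activator of S phase genes, by -0.34 and -0.23. Both missed with SPI (-0.08 and 0.03, adjusted p 0.268 and 0.704). Ccne2, the other E cyclin, changed by -0.33 with E2, but its 2 probe sets gave -0.62 and -0.05. Foxm1, which drives G2 and M phase genes, passed with E2 alone (-0.20, SE 0.06, adjusted p 0.0421). That call was lost in 11 of the other settings run, and 1 of its 2 probe sets was called higher with SPI (0.20). Chek1, a checkpoint kinase, had -0.12, 0.25 and 0.20 with SPI, 0.01, -0.01 and -0.09 with E2, -0.19, -0.18 and -0.10 with SPI+E2 and 0.13, 0.13 and 0.20 with CAS. Its E2 arrays lay close to 0 and its SPI arrays spread over both sides of CAS, and it passed with SPI+E2 alone (-0.31, SE 0.081, adjusted p 0.0276, against -0.18 and 0.183 with E2). The call of Chek1 with SPI+E2 was lost in 6 of the other settings run.

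**Figure D2:**
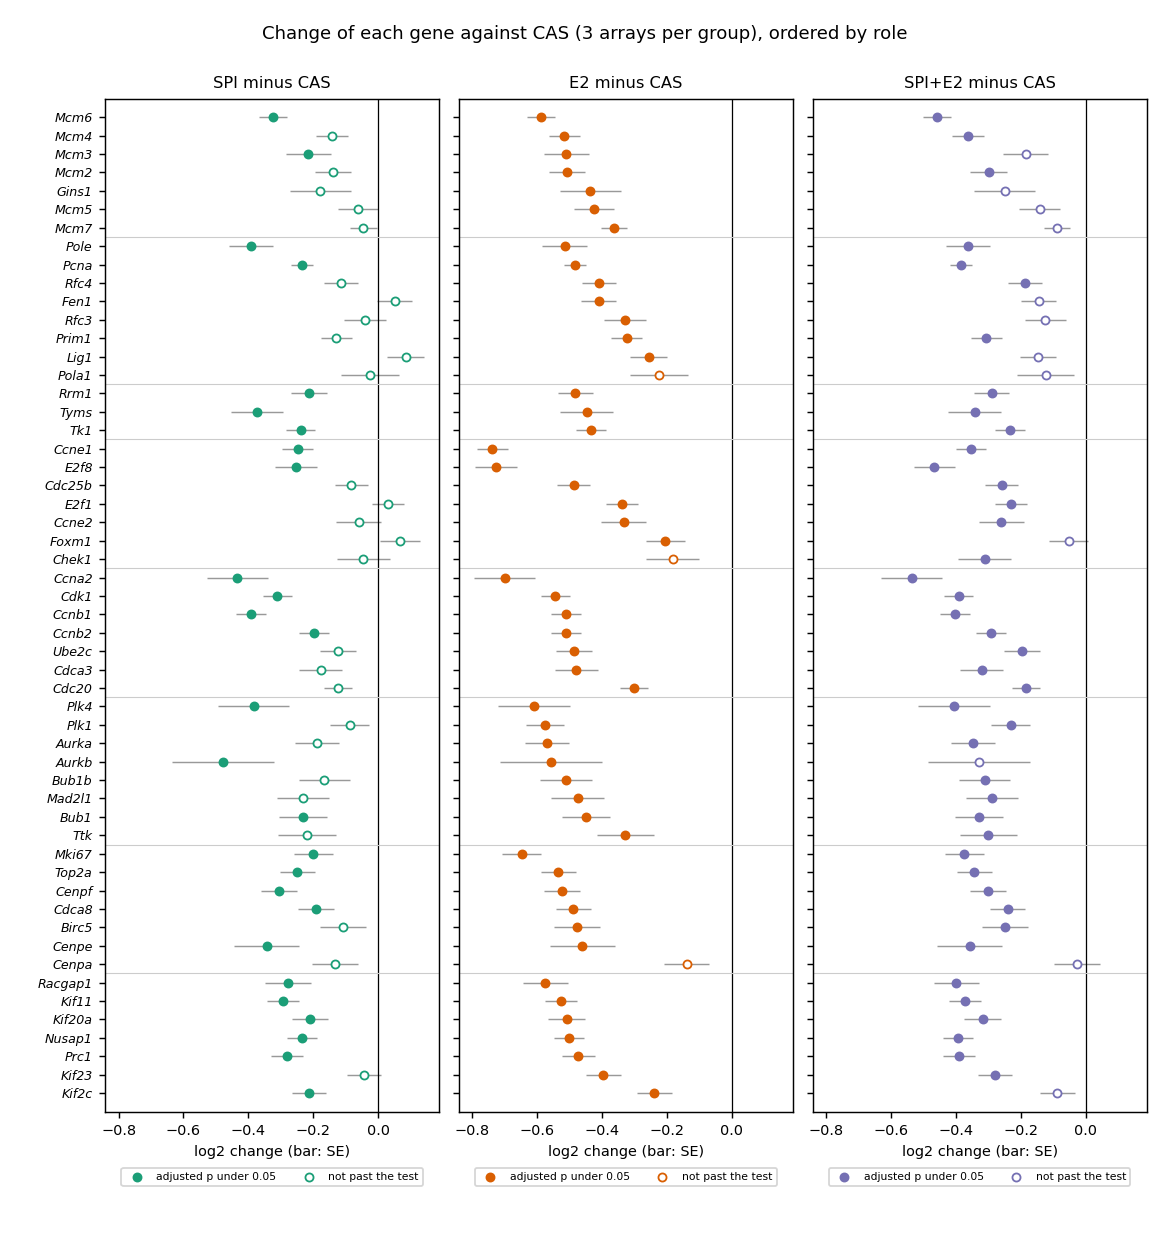
Log2 change of each of the 54 genes (rows, by role) in SPI, E2 and SPI+E2 (panels, left to right) minus CAS, with the standard error as bars, filled where the adjusted p is under 0.05. All points with E2 are left of 0 and 51 of 54 are filled, 42 are filled with SPI+E2 and 27 with SPI.

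In mitosis, the cyclins, Cdk1 and the genes of protein degradation fell together: all 7 were lower with E2 (median -0.51) and with SPI+E2 (median -0.32), and 4 of 7 with SPI (median -0.20). Ccna2, cyclin A2 of S and G2 phase, had -0.08, 0.07 and 0.19 on the SPI arrays, -0.28, -0.27 and -0.07 on the E2 arrays, -0.08, -0.18 and 0.13 on the SPI+E2 arrays and 0.58, 0.41 and 0.50 on the CAS arrays. The CAS arrays lay above all others by a wide gap, with changes of -0.43, -0.70 and -0.54 for SPI, E2 and SPI+E2 (SE 0.094, adjusted p 0.00543, 0.000276 and 0.0033). Cdk1, whose promoter is shown above, had 0.00, 0.04 and 0.05 in the SPI pools, -0.13, -0.26 and -0.22 in the E2 pools, 0.00, -0.11 and -0.04 in the SPI+E2 pools and 0.33, 0.31 and 0.39 in the CAS pools. CAS stood apart again, E2 was lowest, and the changes were -0.31, -0.54 and -0.39 (SE 0.046, adjusted p 0.000478, 8.35e-06 and 0.000254).

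Ccnb1, cyclin B1, the partner of Cdk1 in mitosis, had 0.00, 0.00 and -0.05 with SPI, -0.09, -0.19 and -0.13 with E2, 0.03, -0.10 and -0.02 with SPI+E2 and 0.40, 0.33 and 0.39 with CAS. The 3 treated groups lay near each other and well below CAS, with changes of -0.39, -0.51 and -0.40 for SPI, E2 and SPI+E2 (SE 0.045, adjusted p 7.54e-05, 1.18e-05 and 0.000189). Ccnb2 changed by -0.51 with E2, Ube2c, which tags cyclins for destruction, by -0.49, Cdca3 by -0.48, and Cdc20, an activator of the anaphase-promoting complex, by -0.30. Cdc20 has 5 probe sets, of which 1 was called lower with E2, and their changes ran between -0.59 and -0.17. With SPI+E2 the calls of Ube2c and Cdc20 were lost in 10 and 3 of the other settings run.

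Kinases of mitosis and the spindle checkpoint had 8 of 8 measured members lower with E2 (median -0.53), 7 with SPI+E2 (median -0.32) and 3 with SPI (median -0.22). Plk4, which starts the duplication of centrioles, had -0.31, 0.07 and 0.11 on the SPI arrays, -0.22, -0.25 and -0.34 on the E2 arrays, -0.07, -0.24 and 0.12 on the SPI+E2 arrays and 0.30, 0.31 and 0.41 on the CAS arrays. The first SPI array lay below all but 1 of the E2 arrays, and the changes were -0.38, -0.61 and -0.41 for SPI, E2 and SPI+E2 (SE 0.11, adjusted p 0.0247, 0.00257 and 0.0335). Without that array the change with SPI was -0.25 and no longer passed (adjusted p 0.0734). Plk1, a kinase of spindle and cytokinesis, had 0.09, 0.01 and 0.03 with SPI, -0.49, -0.52 and -0.32 with E2, -0.01, -0.18 and -0.11 with SPI+E2 and 0.12, 0.10 and 0.17 with CAS. Its E2 arrays lay far below, while the SPI arrays lay just under CAS, with changes of -0.09, -0.58 and -0.23 (SE 0.059, adjusted p 0.317, 3.91e-05 and 0.0255).

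Aurkb, the kinase that corrects attachments of chromosomes to the spindle, had -0.70, 0.01 and 0.02 in the SPI pools, -0.25, -0.29 and -0.37 in the E2 pools, -0.25, 0.04 and -0.01 in the SPI+E2 pools and 0.25, 0.17 and 0.33 in the CAS pools. The value of -0.70 is the lowest of any of the 54 genes on any array, and without it the change with SPI was -0.24 in place of -0.48 and did not pass (adjusted p 0.0628 in place of 0.0446). Its change with E2 was -0.56 (SE 0.157, adjusted p 0.0346) and that call was lost in 8 of the other settings run. Aurka, the kinase of spindle poles, changed by -0.57 with E2, and the checkpoint genes Bub1b, Mad2l1, Bub1 and Ttk by -0.51, -0.48, -0.45 and -0.33. The call for Ttk with E2 was lost in 6 settings, and the call for Bub1 with SPI in 10. With SPI+E2 the calls for Ttk, Mad2l1, Plk4, Plk1 and Bub1b were lost in 12, 8, 6, 5 and 5 settings. That for Bub1 was lost in 1 and that for Aurka in 0.

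Genes of centromeres and chromosomes had 6 of 7 lower with E2 (median -0.49), 6 with SPI+E2 (median -0.30) and 5 with SPI (median -0.20). Mki67, which encodes the Ki-67 protein that coats mitotic chromosomes and is the usual stain for cycling cells, had -0.02, 0.09 and 0.16 on the SPI arrays, -0.33, -0.44 and -0.35 on the E2 arrays, -0.17, -0.13 and 0.02 on the SPI+E2 arrays and 0.31, 0.30 and 0.23 on the CAS arrays. CAS and E2 lay at opposite ends with SPI and SPI+E2 between them, the changes being -0.20, -0.65 and -0.37 for SPI, E2 and SPI+E2 (SE 0.06, adjusted p 0.0311, 1.89e-05 and 0.00211). The call of Mki67 with SPI was lost in 7 of the other settings run. Top2a, the topoisomerase that untangles chromosomes, had -0.07, 0.05 and 0.13 in the SPI pools, -0.23, -0.29 and -0.22 in the E2 pools, -0.09, -0.08 and 0.00 in the SPI+E2 pools and 0.28, 0.24 and 0.34 in the CAS pools. Its order was the same, with changes of -0.25, -0.53 and -0.34 (SE 0.054, adjusted p 0.00566, 3.42e-05 and 0.00177).

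Cenpf, Cdca8, Birc5 and Cenpe, of the kinetochore and the chromosomal passenger complex, changed by -0.52, -0.49, -0.48 and -0.46 with E2, all called. Cenpe had -0.27, 0.08 and 0.11 on the SPI arrays, and its call with SPI was lost without that array (-0.22, adjusted p 0.0787). Cenpa had -0.13, -0.02 and 0.03 with SPI, -0.07, -0.01 and -0.07 with E2, -0.01, 0.01 and 0.20 with SPI+E2 and 0.01, 0.22 and 0.04 with CAS. Its SPI and SPI+E2 arrays overlapped CAS, 1 SPI+E2 array and 1 CAS array stood out at the top, and no comparison with CAS passed, at -0.13, -0.14 and -0.03 for SPI, E2 and SPI+E2 (SE 0.07, adjusted p 0.198, 0.246 and 0.857).

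Spindle motors and genes of cytokinesis had all 7 measured members lower with E2 (median -0.50), 6 with SPI+E2 (median -0.37) and 6 with SPI (median -0.23). Racgap1, which helps to place the cleavage furrow, had -0.14, 0.14 and 0.14 on the SPI arrays, -0.25, -0.28 and -0.23 on the E2 arrays, -0.11, -0.09 and -0.03 on the SPI+E2 arrays and 0.33, 0.25 and 0.38 on the CAS arrays. Every CAS array lay above every other array, with changes of -0.28, -0.58 and -0.40 for SPI, E2 and SPI+E2 (SE 0.07, adjusted p 0.0128, 0.000139 and 0.0034). Kif11, the motor that pushes spindle poles apart, had 0.10, -0.02 and 0.06 in the SPI pools, -0.17, -0.22 and -0.17 in the E2 pools, -0.04, 0.02 and -0.07 in the SPI+E2 pools and 0.33, 0.42 and 0.27 in the CAS pools. CAS was again apart, and the changes were -0.29, -0.53 and -0.37 (SE 0.05, adjusted p 0.00125, 2.04e-05 and 0.000608).

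The motors Kif20a, Kif23 and Kif2c changed by -0.51, -0.40 and -0.24 with E2, and Nusap1 and Prc1, which bundle spindle microtubules, by -0.50 and -0.47. Kif2c, which takes microtubules apart, missed with SPI+E2 (-0.09, adjusted p 0.323). The 2 probe sets of Kif23 went opposite ways with SPI, at -0.28 and 0.20. With E2 they gave -0.58 and -0.21, and the 2 of Kif2c gave -0.39 and -0.09. For each of these genes 1 of 2 probe sets was called lower with E2, as for Lig1, Foxm1 and Ttk.

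Replication and mitosis genes were both lower in each treated group, with slightly smaller changes against CAS in replication. Of 18 replication genes 7 were lower with SPI, 17 with E2 and 10 under SPI+E2 (medians -0.14, -0.44 and -0.24), and of 29 mitosis genes 18, 28 and 26 (medians -0.22, -0.51 and -0.32). The median change of replication genes lay 0.08 above that of mitosis genes with SPI, 0.07 with E2 and 0.08 under SPI+E2. With only the 12 Mcm, Rrm, Rfc, Pol and Prim genes in the replication class this gap was 0.08, 0.06 and 0.08. The 3 gaps share the CAS arrays and are not independent. In comparisons without CAS the medians of replication and mitosis genes lay closer. They were 0.28 and 0.27 for SPI against E2, and 0.19 and 0.18 for SPI+E2 against E2. For SPI+E2 against SPI they were -0.08 and -0.09. On the CAS arrays the replication mean minus the mitosis mean was -0.055, -0.054 and -0.077. This difference was -0.028, -0.002 and 0.024 with E2, 0.024, -0.015 and -0.003 with SPI+E2, and 0.098, -0.005 and -0.028 with SPI. Its SD within groups was 0.038, which is not the spread of a difference of medians. The replication mean was 0.05, 0.06 and 0.05 with SPI, -0.23, -0.25 and -0.18 with E2, -0.03, -0.08 and -0.01 with SPI+E2 and 0.21, 0.19 and 0.21 with CAS. The mitosis mean was -0.05, 0.06 and 0.08 with SPI, -0.21, -0.25 and -0.21 with E2, -0.06, -0.07 and -0.01 with SPI+E2 and 0.26, 0.25 and 0.29 with CAS. In both classes CAS lay above all other arrays and E2 below, and the mitosis mean of the first SPI array fell among the SPI+E2 arrays while its replication mean did not.

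The counts of mitosis genes moved when single CAS arrays were left out. With SPI the count was 18, and 11 without the first or without the third CAS array. With SPI+E2 it was 26, and 17 without either of these arrays. Without the first SPI array the count with SPI was 13. The counts with E2 stayed at 26 to 28 for mitosis and at 17 for replication whichever array was left out.

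**Figure D3:**
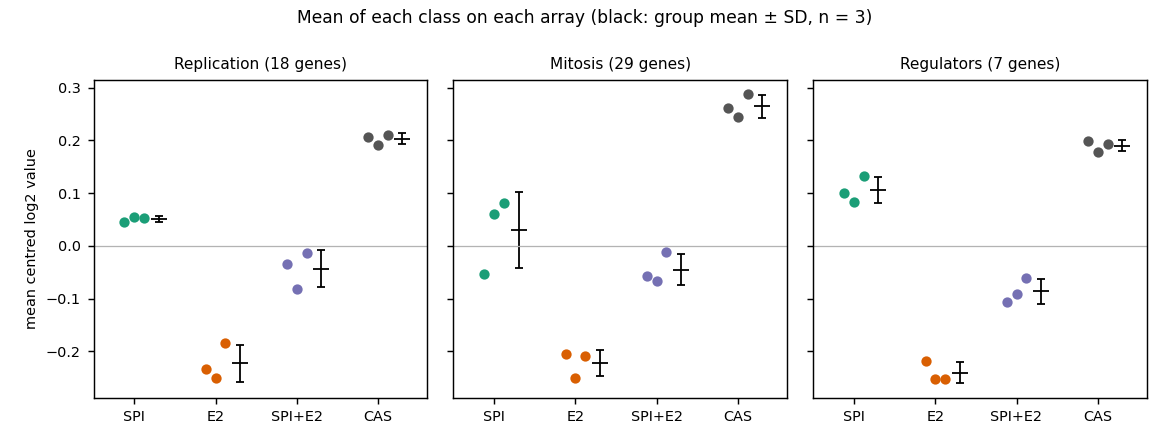
Mean centred log2 value of the 18 replication, 29 mitosis and 7 regulator genes (panels) on each array (points, 3 per group), with the group mean and SD in black. CAS is highest and E2 lowest in each panel, and the lowest SPI point of the mitosis panel, at -0.05, is the first SPI array.

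The next question was whether the soy diet and the hormone differed from each other. SPI against E2 left 40 of 54 genes called higher with SPI and 0 lower, where 11.1% of all genes were higher and 13% lower (median 0.27). Ccne1 had the clearest difference, 0.49 (SE 0.047, adjusted p 2.64e-05), followed by Plk1 at 0.49 (adjusted p 0.000136) and E2f8 at 0.47 (adjusted p 0.000283). Among replication genes 14 of 18 were higher with SPI, among mitosis genes 20 of 29 and among regulators 6 of 7. The SPI arrays lay wholly above the E2 arrays for 41 genes and below them for 0 (18.9% and 20.1% of all genes).

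E2 on the soy diet was then set against the soy diet alone. SPI+E2 against SPI left 11 of 54 genes called lower and 0 higher, where 8% of all genes were lower and 9.12% higher (median -0.10). The genes called were 5 of replication (Pcna, Mcm4, Prim1, Fen1 and Lig1), 2 of mitosis (Nusap1 and Kif23) and 4 regulators (E2f1, E2f8, Cdc25b and Chek1). The changes of these 11 lay between -0.27 for Chek1 and -0.15 for Pcna. Only 3 of the 11 were called under all the settings run, and the count was 5 without the second SPI+E2 array, 6 without the second SPI array and 7 without the third SPI array.

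Set against E2 alone, SPI+E2 had 21 of 54 genes higher and 0 lower, where 7.32% of all genes were higher and 8.23% lower (median 0.18). Ccne1 differed by 0.39 (SE 0.047, adjusted p 0.000248), Plk1 by 0.35 (adjusted p 0.00229), Mcm3 by 0.32 (adjusted p 0.0078) and Mcm7 by 0.28 (adjusted p 0.000907). Of the Mcm genes, Mcm2, Mcm3, Mcm5 and Mcm7 passed and Mcm4 and Mcm6 did not, at 0.15 and 0.13 (adjusted p 0.0564 and 0.0588). For the 21 genes the group on both treatments thus lay nearer to CAS than the group on E2.

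The change with E2 on the soy diet (SPI+E2 minus SPI) was set against the change with E2 on casein (E2 minus CAS) by the interaction term, which uses all 12 arrays. It was positive for 53 of 54 genes, meaning that the change with E2 lay higher on the soy diet than on casein. On the soy diet itself 46 of the 54 changes with E2 were negative, and on casein all 54. Of the terms 39 of 54 passed with 0 negative calls, where 8.03% of all genes passed as positive and 7.72% as negative, 15.8% in all (median 0.37, against 0.04 over all genes). By class 12 of 18 replication genes, 24 of 29 mitosis genes and 3 of 7 regulators passed. The largest that passed were Ccne1 at 0.63 (SE 0.066, adjusted p 3.97e-05), Ccna2 at 0.60 (SE 0.132, adjusted p 0.009), Plk4 at 0.59 (SE 0.156, adjusted p 0.0238), Pole at 0.55 (SE 0.096, adjusted p 0.00213) and Mcm3 at 0.54 (SE 0.097, adjusted p 0.00241). Ccne1 changed by -0.11 with E2 on the soy diet and by -0.74 on casein.

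The term for Aurkb was 0.71 and missed (SE 0.223, adjusted p 0.0523). Without the first SPI array it was 0.47 and passed (adjusted p 0.0149). At the other end Chek1 had the only negative term, -0.08, and Lig1, E2f1 and Foxm1 had 0.03, 0.08 and 0.09, none past the test (adjusted p 0.702, 0.88, 0.522 and 0.579). Lig1 changed with E2 by -0.23 on the soy diet and by -0.26 on casein, and E2f1 by -0.26 on the soy diet and by -0.34 on casein. Across the 54 genes the changes with E2 on the 2 diets, which share no array, had r = 0.035 (-0.216 over 18 replication genes, 0.409 over 29 mitosis genes and -0.202 over all 14217 genes). Genes are not independent replicates, and no test was made of these correlations.

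**Figure D4:**
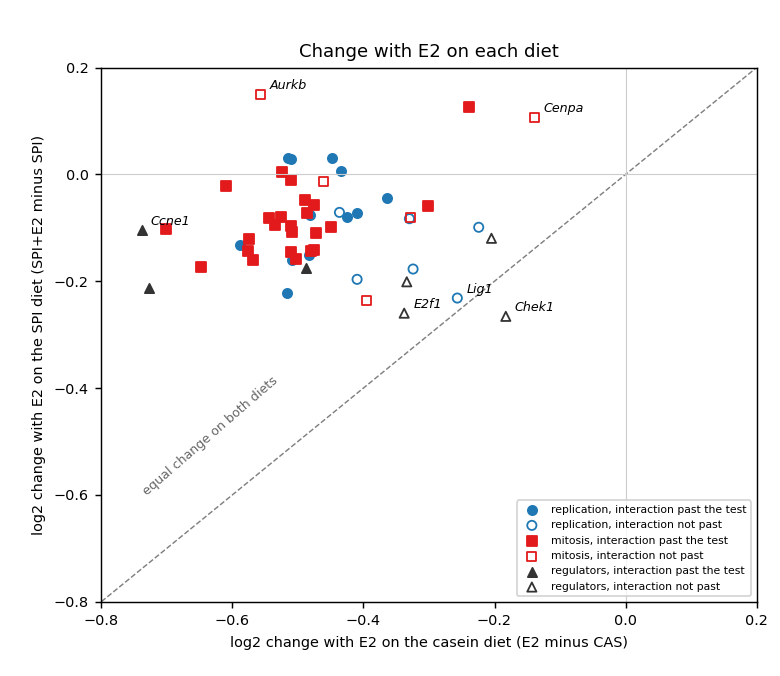
Log2 change with E2 on the soy diet (SPI+E2 minus SPI, vertical) against the change with E2 on the casein diet (E2 minus CAS, horizontal) for the 54 genes, by class, filled where the interaction passed. The dashed line marks equal changes, and 53 of 54 genes lie above it, with Chek1 below.

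Over the 12 arrays the genes rose and fell together. The median correlation over 1431 pairs of genes was 0.816, with a lowest value of 0.071 and 100% of pairs positive. Cenpa followed the mean of the others least (r = 0.447), then Chek1 (0.595), Pola1 (0.615) and Foxm1 (0.626). These arrays share their groups, and after the group means were taken away the median was 0.094 and 58.5% of pairs were positive. It was 0.113 within replication, 0.159 within mitosis and 0.103 between the classes.

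Other genes of the cell cycle were taken from 4 further lists, whose counts can be read against the 14.6%, 7.23% and 7.06% of all genes called lower with SPI, E2 and SPI+E2. Of 41 other replication genes 12 were lower with SPI, 24 with E2 and 12 under SPI+E2 (medians -0.09, -0.27 and -0.14), the largest with E2 being Cdt1, which loads the Mcm ring, at -0.69, Uhrf1, which carries DNA methylation through replication, at -0.63 and Orc1, of the origin complex, at -0.54. Of 68 other mitosis genes 27 were lower with SPI, 51 with E2 and 38 under SPI+E2 (medians -0.15, -0.43 and -0.26), with Depdc1 at -0.78, Cenpq at -0.70 and Sgo1, the protector of cohesion, at -0.66 with E2. Of 20 G1 cyclins, Cdks and Rb family genes 7, 10 and 9 were lower (medians -0.12, -0.18 and -0.16), with E2f2 at -0.68, Rbl1 at -0.65 and Tfdp2 at -0.52 with E2.

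The fourth list held inhibitors of the cycle. Of 15 genes of Cdk inhibition and p53 arrest, 5 were lower with SPI, 4 with E2 and 4 under SPI+E2, and 0 were higher, where 10.7%, 6.98% and 5.8% of all genes were called higher. With SPI these were Cdkn1a, the p53 target that halts the cycle, at -0.38, Gadd45a at -0.33, Ccng2 at -0.25, Cdkn3 at -0.23 and Ccng1 at -0.19. With E2 they were Cdkn3 at -0.56, Cdkn2d at -0.22, Gadd45a at -0.19 and Btg1 at -0.16, and with SPI+E2 Cdkn3 at -0.37, Cdkn2d at -0.24, Cdkn1b at -0.23 and Gadd45a at -0.19. Cdkn3 is a phosphatase that is itself made in cycling cells, and Cdkn1a with E2 was at -0.01 and did not pass.

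The clearest exception was Zwint, of the kinetochore, which was higher in every treated group: 0.94 with SPI, 0.53 with E2 and 0.20 under SPI+E2 (limma, SE 0.037, adjusted p 2.51e-08, 2.14e-06 and 0.00403). Rat Zwint is also known as a neuronal protein that binds Snap25. The other cell cycle genes called higher against CAS were Incenp (0.23), Rfc2 (0.21) and Stmn1 (0.16), each with SPI alone.

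Markers of several marrow and bone cell types moved beside these genes, and their part in the result was not tested. All counts of markers can be read against the shares of all genes with SPI, E2 and SPI+E2. These were 14.6%, 7.23% and 7.06% called lower and 10.7%, 6.98% and 5.8% called higher. Of 15 erythroid markers 12 were lower with SPI, 14 with E2 and 13 under SPI+E2, and their mean lay between 0.016 and 0.035 on the SPI arrays, -0.274 and -0.242 on the E2 arrays, -0.05 and -0.005 on the SPI+E2 arrays and 0.419 and 0.442 on the CAS arrays. Their order over the 4 groups was that of the cell division genes. Of 10 megakaryocyte and platelet markers 8, 10 and 6 were lower and 1 was higher with SPI+E2, with means of -0.121 to -0.084 with SPI, -0.403 to -0.352 with E2, 0.115 to 0.177 with SPI+E2 and 0.415 to 0.428 with CAS.

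B cell markers went another way with SPI: of 6, 4 were higher with SPI, 6 lower with E2 and 4 lower with SPI+E2 (means 0.265 to 0.373 with SPI, -0.347 to -0.295 with E2, -0.139 to -0.117 with SPI+E2 and 0.081 to 0.138 with CAS). Neutrophil markers, 8 measured, had 4 higher and 1 lower with SPI, 4 lower with E2 and 4 higher with SPI+E2 (means 0.044 to 0.075 with SPI, -0.247 to -0.236 with E2, 0.243 to 0.295 with SPI+E2 and -0.061 to -0.044 with CAS). Of 13 chondrocyte markers 10, 7 and 9 were lower with SPI, E2 and SPI+E2 and 1, 1 and 0 higher (means -0.315 to -0.228 with SPI, 0.07 to 0.12 with E2, -0.135 to -0.095 with SPI+E2 and 0.334 to 0.357 with CAS). They were lowest with SPI, unlike the cell division genes.

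Osteoblast markers, 10 measured, moved little, with 2 lower and 1 higher with SPI, 1 lower with E2, and 1 lower and 1 higher with SPI+E2 (means between -0.04 and 0.05 on all 12 arrays). Of 7 osteocyte markers 5, 0 and 4 were lower with SPI, E2 and SPI+E2. Neuron and Schwann cell markers took another order, with 15 of 15 higher with SPI, 14 with E2 and 7 under SPI+E2, where 2 were lower (means 0.456 to 0.523 with SPI, 0.318 to 0.334 with E2, -0.31 to -0.299 with SPI+E2 and -0.471 to -0.445 with CAS). Skeletal muscle markers, 17 measured, had 12 lower with SPI, 2 higher with E2 and 5 higher with SPI+E2. Osteoclast markers, 7 measured, had 2 higher and 1 lower with SPI, 2 lower with E2 and 4 higher with SPI+E2. The lists are not fully separate. Itgb3, at 0.25 with SPI+E2, is on the osteoclast list and was also the 1 megakaryocyte marker called higher. Mmp9, at 0.39 with SPI+E2, is on the osteoclast and neutrophil lists. Of 11 macrophage markers 1 was lower with SPI, 1 lower with E2 and 3 higher with SPI+E2, and of 12 T and NK cell markers 0 passed with SPI, 4 were lower with E2, and 3 were lower and 1 higher with SPI+E2. Counts of 1 or 2 genes in lists this short are too few, beside the shares of all genes, to be read as a change of a cell type. The values are centred, so which of these markers are near background cannot be read.

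**Figure D5:**
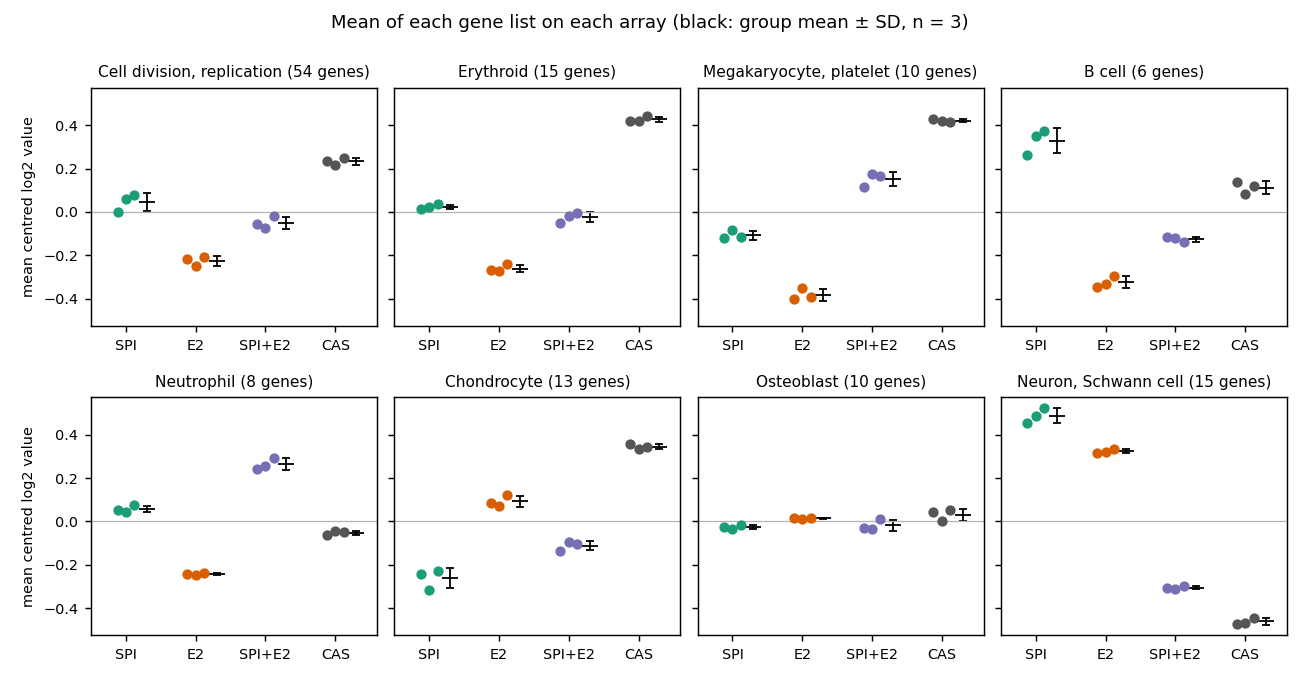
Mean centred log2 value of the 54 cell division and replication genes and of 7 marker lists (panels) on each array (points, 3 per group), with the group mean and SD in black. The erythroid panel follows the order of the cell division panel, CAS highest and E2 lowest, while B cell, neutrophil, chondrocyte and nerve markers take other orders and osteoblast markers stay near 0.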

How the data were processed

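RNA of the right tibia was hybridised by the authors to 12 Affymetrix GeneChip rat genome arrays, 3 pools in each of 4 groups. The deposited table holds log2 values that the authors made from the scans by RMA (the submitters' notes also name GCOS) and normalised in GeneSpring per chip and per gene, so that each probe set has a median of 0 over the arrays. The log base comes from the methods and cannot be read from the values, and no filter on dim probe sets was possible. Such arrays hold no read depth, and the number of arrays limits precision.

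Control probe sets (57 of 31099) were left out. Of the other 31042, 20826 carry 1 gene symbol, 436 several and 9780 none, and probe sets of a gene were averaged, which gave 14217 genes. A single limma fit (limma 3.58.1, R 4.3.3) over the 4 groups, with Benjamini-Hochberg adjustment over all genes for each comparison, gave every change, standard error and adjusted p, with 8 residual and 3.53 prior degrees of freedom. The fit was tested on simulated data. Alternatives were other normalisations, single probe sets, 2-group fits, array weights, robust and unmoderated variances, motifs on 1 strand, the methods' analysis of variance with Newman-Keuls comparisons, the pool number as a block and leaving out each array.

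The genes, roles and lists were chosen with earlier results of these data known. Per-array values are given for Mki67, Top2a, Ccna2, Ccnb1, Cdk1, Pcna and Mcm2 to Mcm7, for the 2 genes of each role with the largest change with E2, and for genes that passed in no comparison with CAS. Chek1 and Aurkb were added after their values were seen. Of the other lists, the 3 largest changes with E2 in each direction among genes that passed the test (fewer where fewer passed) and all called Cdk inhibitors are named.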

Additional observations from a re-analysis of the deposited data

Results flagged for a closer look

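For 39 genes the change with E2 on the soy diet (SPI+E2 minus SPI) differed from the change with E2 on casein (E2 minus CAS) by the limma interaction term, adjusted over all genes. All 39 terms were positive, meaning that the change with E2 lay higher on the soy diet than on casein, where 8.03% of all genes passed as positive. For Kif2c, Pole, Mcm3, Tyms, Tk1 and Cenpf the change on the soy diet was itself above 0, the highest being 0.13 for Kif2c. The terms share the same 12 arrays and are not independent of each other.

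In replication the log2 terms were 0.55 for Pole, 0.54 for Mcm3, 0.48 for Tyms, 0.46 for Mcm6, 0.44 for Tk1, 0.41 for Rrm1, 0.35 for Mcm2, 0.34 for Mcm5, 0.34 for Rfc4, 0.33 for Pcna, 0.32 for Mcm7 and 0.29 for Mcm4. Among regulators they were 0.63 for Ccne1, 0.51 for E2f8 and 0.31 for Cdc25b.

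Of the mitosis genes, cyclins, Cdk1 and genes of degradation had 0.60 for Ccna2, 0.50 for Ccnb1, 0.46 for Cdk1, 0.41 for Ccnb2, 0.41 for Ube2c, 0.34 for Cdca3 and 0.24 for Cdc20. Kinases and checkpoint genes had 0.59 for Plk4, 0.43 for Plk1, 0.42 for Mad2l1, 0.41 for Aurka, 0.37 for Bub1b and 0.35 for Bub1. Centromere and chromosome genes had 0.53 for Cenpf, 0.47 for Mki67, 0.44 for Top2a, 0.44 for Cdca8 and 0.33 for Birc5. Motors and cytokinesis genes had 0.45 for Racgap1, 0.45 for Kif11, 0.40 for Kif20a, 0.37 for Kif2c, 0.36 for Prc1 and 0.34 for Nusap1.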

How the results depend on the processing

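Of 7884 results of single genes compared over all settings, 7356 kept their side of the threshold, 373 were lost and 155 were gained. No called value changed sign, while 46 values that were not called did. The genes called under every setting were 15 of 27 for SPI against CAS, 48 of 51 for E2 against CAS, 27 of 42 for SPI+E2 against CAS, 35 of 40 for SPI against E2, 3 of 11 for SPI+E2 against SPI, 12 of 21 for SPI+E2 against E2 and 32 of 39 for the interaction.

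Leaving out 1 array at a time gave 18 to 29 genes lower for SPI, 48 to 52 for E2 and 29 to 43 for SPI+E2 against CAS, 38 to 44 higher for SPI against E2, 5 to 13 lower for SPI+E2 against SPI, 14 to 26 higher for SPI+E2 against E2 and 33 to 40 for the interaction. Replication genes lower with SPI were 5 to 8, mitosis genes lower with SPI 11 to 20 and with SPI+E2 17 to 27. The difference between class medians was 0.06 to 0.09 with SPI, 0.05 to 0.10 with E2 and 0.06 to 0.11 with SPI+E2.

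SPI+E2 against SPI gave 4 genes with only those 2 groups in the fit. The methods' analysis of variance with Newman-Keuls comparisons, unadjusted over genes, gave 20 there, 34 for SPI+E2 against E2 and 11 replication genes lower with SPI. The cause was not tested.

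Pool numbers are not stated to pair the arrays, and the values did not settle whether they do. Of 18 same-numbered pairs 6 correlated above 0.1 (range -0.081 to 0.26), and 5 of 12 arrays correlated best with their own number. The pairs of the third pools were all positive, between 0.071 and 0.26. With the pool number as a block the counts were 28, 50 and 41 for SPI, E2 and SPI+E2 against CAS, 42 for SPI against E2, 12 for SPI+E2 against SPI, 21 for SPI+E2 against E2 and 38 for the interaction. Centred values limit what can be said of dim probe sets, since none could be told from background.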
